A study of Mus musculus with 6 samples.

Results

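Of the 14986 genes in the deposited table, 7 belong to the BCL2 family of survival genes described here: Mcl1, Bcl2, Bcl2l1, Bak1, Bcl2l11, Bad and Bid. They were taken by gene symbol, without use of their values, and all 7 are in the table. The RNA came from mouse long-term haematopoietic stem cells, the rare marrow cells from which all blood lineages arise, which were depleted of lineage-positive cells and then sorted, 1500 per library. Of the 6 libraries, 3 carry the genotype label wild type and 3 the label ZCCHC8 KO. ZCCHC8 serves as scaffold of the nuclear exosome targeting complex, and the study compares transcriptomes with and without it. The labels give no strain, age, sex or treatment, and they do not say how the knockout was made or whether replicates came from separate animals. The p-values are therefore set against the scatter of these 6 libraries alone, and part of that scatter may be technical.

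BCL2 family proteins decide whether the outer mitochondrial membrane is opened, the step that releases cytochrome c and starts the caspases. Guardians (MCL1, BCL2 and BCL-XL, the product of Bcl2l1) hold back the effectors BAK and BAX, and BH3-only proteins (BIM, the product of Bcl2l11, BAD and BID) either occupy the guardians or engage the effectors. In blood stem cells MCL1 is known as a factor that the cells need to survive, and cytokines such as stem cell factor act in part by keeping guardians high and BH3-only proteins in check.

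The BH3 motif is the short helix by which these proteins bind each other, and it is the sequence that the 7 genes share. It was searched for in the longest annotated coding sequence of each gene (GENCODE M21 transcripts, GRCm38) as a leucine codon, any 3 codons, a glycine, alanine or serine codon and an aspartate codon. Each of the 7 coding sequences held the pattern 1 time. The pattern is short, and 33.8% of the 21739 longest coding sequences of mouse genes also hold it, so a match alone does not mark a family member. The 36 coding bases around the match are printed 5′ to 3′, with the leucine codon and the glycine or serine and aspartate codons in capitals, to show what is alike in genes whose levels are described below.
Mcl1: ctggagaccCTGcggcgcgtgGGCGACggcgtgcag
Bcl2: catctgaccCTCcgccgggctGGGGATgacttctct
Bcl2l1: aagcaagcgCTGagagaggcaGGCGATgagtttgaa
Bak1: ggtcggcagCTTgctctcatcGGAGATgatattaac
Bcl2l11: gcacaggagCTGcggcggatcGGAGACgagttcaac
Bad: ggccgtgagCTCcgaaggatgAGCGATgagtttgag
Bid: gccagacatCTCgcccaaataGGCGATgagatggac

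The Mcl1 stretch is in exon 1 (chr3:95659427-95659462, plus strand) and that of Bcl2 also in exon 1 (chr1:106712575-106712610, minus strand). For Bcl2l1 it is in exon 2 of the transcript used (chr2:152829697-152829732, minus strand). The Bak1 stretch is in exon 4 (chr17:27022531-27022566, minus strand) and that of Bcl2l11 in exon 3 (chr2:128147141-128147176, plus strand). Bad carries it in exon 3 (chr19:6950783-6950818, plus strand) and Bid in exon 4 (chr6:120897289-120897324, minus strand). The capitals after the gap encode glycine and aspartate in 6 of the genes, and serine and aspartate in Bad. Base by base, the most alike pairs were Bak1 with Bid, Bcl2l11 with Bad and Bak1 with Bcl2l11, each with 22 of 36 bases identical, and the least alike Mcl1 with Bak1, Mcl1 with Bid and Bcl2 with Bid, with 13. The expression table holds 1 value per gene, so the long and short splice forms of Mcl1, Bcl2l1 and Bcl2l11, which differ in activity, are summed in every value below.

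Values are in FPKM, fragments per kilobase of exon scaled to library depth, as deposited. The reads behind them, recovered from the table, came to 18059317 to 18909210 in wild type and 18963361 to 25709661 in KO. Zcchc8 itself was not lower in the libraries labelled KO, at 8.93, 5.24 and 5.16 FPKM in the wild-type libraries, and 10.4, 5.54 and 5.92 FPKM in the KO libraries. The log2 change was 0.15 ± 0.33 (SE), with a limma adjusted p of 0.935. A value summed over exons does not reveal the loss of 1 exon, so "KO" below means the libraries so labelled. All 11 listed markers of long-term stem cells were above 0 in at least 5 of 6 libraries, with summed levels of 369 to 422 FPKM in wild type and 323 to 358 FPKM in KO. By sign 8 of them were lower in KO and 3 higher, and 0 had a limma adjusted p under 0.05. At a limma unadjusted p under 0.05, 6 were lower, against 4.33% of all tested genes. Marker sums of 7 other lineages also differed between the groups, with no overlap. The 4 eosinophil genes measured summed to 0.116 to 1.02 FPKM in wild type and 161 to 205 FPKM in KO, and all 4 rose (limma adjusted p under 0.05). Erythroid genes summed to 102 to 131 FPKM and 422 to 449 FPKM. All 6 tested were higher in KO by sign, and 4 of them had a limma adjusted p under 0.05. B and plasma cell genes summed to 809 to 926 FPKM and 82.1 to 117 FPKM, and 1 of 6 passed that threshold, being lower in KO. That gene, Igkc, an immunoglobulin light chain named here after its values were seen, made up most of the wild-type sum, and 4 of the 6 had the opposite sign. Sums were also higher in KO for monocytes and dendritic cells (119 to 149 FPKM against 238 to 276 FPKM) and granulocytes (2697 to 2909 FPKM against 3621 to 4031 FPKM). All 4 tested monocyte and dendritic genes were higher by sign and 2 passed. Of 8 granulocyte genes, 6 were higher by sign and 1 passed. Higher sums were found too for T and NK cells (189 to 232 FPKM against 310 to 323 FPKM, 0 of 4 passing) and megakaryocytes (214 to 312 FPKM against 349 to 389 FPKM, 0 of 5 passing). Nkg7 made up most of the T and NK sum, with means of 201 FPKM in wild type and 301 FPKM in KO. Pf4 made up most of the megakaryocyte sum, with means of 162 FPKM and 276 FPKM. Both genes are named here after their values were seen. A higher sum did not mean that all genes of a list were higher. Of the 5 tested megakaryocyte genes, 3 were lower in KO by sign, with a median log2 change of -0.197. Lower by sign were also 2 of 8 granulocyte genes and 1 of 4 T and NK genes. Of the listed markers, Ear1, Ear2, Ms4a1, Cd3e, Cd3g, Gzma, Csf1r, Ly86 and Siglech were not analysed here. In bulk samples, fewer cells of a type and less RNA per cell cannot be told apart, and the part of these markers in the values below was not tested.

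All 7 genes passed the expression filter, set at an average of 1 FPKM or more, and none passed the test between the groups. With limma on log2(FPKM + 1), 0 of 7 had an adjusted p under 0.05, against 0.228% of the 11837 tested genes, and 0 had an unadjusted p under 0.05, against 9.2% of tested genes. Their adjusted p ran from 0.592 to 0.951. By sign, 4 were higher in KO and 3 lower, with a median log2 change of 0.18 against 0.00 over all tested genes. That median was -0.08 without KO library 3, and also -0.08 with a filter of at least 5 FPKM, which Bak1 and Bcl2l11 do not pass. It was between 0.01 and 0.08 when KO library 1 or any 1 of the wild-type libraries was left out. For 1 gene, Bad, the groups did not overlap. Among all tested genes this held for 15.2%, and with KO below wild type for 6.99%, and 1 of 7 is near that background. The exact two-sided permutation test was run for each of the 7 genes, and 3 libraries against 3 cannot give a p below 0.1.

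**Figure D1:**
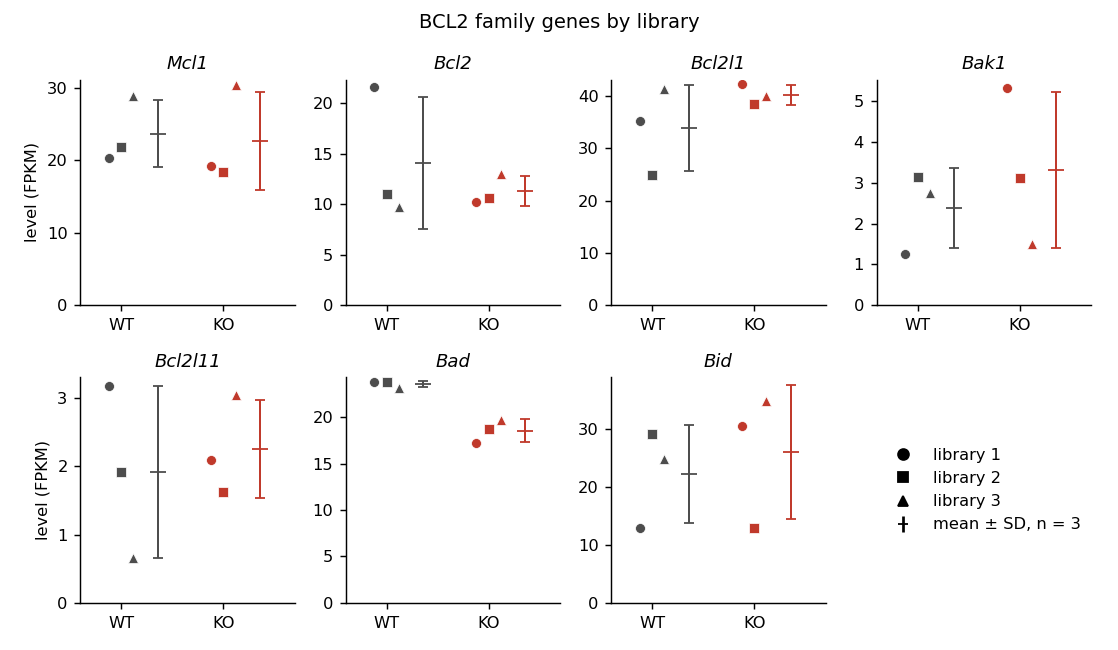
Level in FPKM (vertical axes, linear from 0) of the 7 genes in the wild-type (WT, grey) and KO (red) libraries, with 1 symbol per library and the mean ± SD (n = 3) beside them. The Bad values of KO, 17.2 to 19.7, all sit below those of wild type, 23.2 to 23.8, while the groups overlap in the other 6 panels.

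Among the guardians, Bcl2l1 (chromosome 2, 152780668 to 152831728, minus strand) had the highest mean FPKM. It stood at 35.2, 24.97 and 41.3 FPKM in the wild-type libraries, and 42.2, 38.4 and 40.0 FPKM in the KO libraries. The KO libraries lay close together, and wild-type library 2 was the low one. BCL-XL, its product, is known for keeping late erythroid cells and platelets alive. The group means were 33.8 ± 8.24 and 40.2 ± 1.92 FPKM (SD, n = 3), a log2 change of 0.27 ± 0.20 (SE; limma adjusted p = 0.718, exact p = 0.3). The 95% interval of the change on the FPKM + 1 scale ran from 0.887-fold to 1.64-fold. Without wild-type library 2 the log2 change was 0.08, and without wild-type library 3 it was 0.43.

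Mcl1 (chromosome 3, 95658788 to 95663176, plus strand) encodes a guardian with a very short-lived protein. It stood at 20.3, 21.7 and 28.9 FPKM in the wild-type libraries, and 19.1, 18.3 and 30.3 FPKM in the KO libraries. In both groups library 3 was the high one and the other libraries lay together. KO libraries 1 and 2 were below every wild-type library, and KO library 3 was above every one. The log2 change was -0.08 ± 0.24 (limma adjusted p = 0.951, exact p = 0.6), with an interval from 0.647-fold to 1.38-fold. Its sign turned without wild-type library 3 (0.06) and without KO library 1 (0.01) or 2 (0.04).

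Bcl2 (chromosome 1, 106538178 to 106714274, minus strand) gave the family its name and had the lowest mean FPKM of the 3 guardians. Its levels were 21.6, 11.0 and 9.74 FPKM in the wild-type libraries, and 10.2, 10.6 and 13.0 FPKM in the KO libraries. Only wild-type library 1 stood apart, and the other 5 libraries ran from 9.74 to 13.0 FPKM. That library held 3574 reads of the gene, and its counting interval of 20.9 to 22.3 FPKM (exact Poisson, 95%) does not reach the others. The log2 change of -0.22 ± 0.30 (limma adjusted p = 0.869, exact p = 0.8; 0.531-fold to 1.38-fold) became 0.11 without it. An antisense gene on the other strand shares 558 exon bases with Bcl2, and reads from the pair cannot be told apart if strand was not used.

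The effector Bak1 (chromosome 17, 27019810 to 27029009, minus strand) was low and varied. BAK sits in the outer mitochondrial membrane and forms pores when activated. It measured 1.27, 3.13 and 2.75 FPKM in the wild-type libraries, and 5.32, 3.11 and 1.496 FPKM in the KO libraries. The highest and the lowest KO library differed 3.55-fold, which was more than the difference between the group means. Behind these values were 55 to 138 reads in wild type and 75 to 329 reads in KO. The log2 change was 0.30 ± 0.43 (limma adjusted p = 0.881, exact p = 0.5), with a wide interval of 0.625-fold to 2.41-fold, and it was -0.03 without KO library 1. Bak1 shares 437 and 177 exon bases with gene models named Ggnbp1 on the opposite strand, at 0.759 ± 0.316 and 0.467 ± 0.136 FPKM (SD, n = 3) in the table, and the part of the shared bases was not tested.

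Among the BH3-only genes, Bad (chromosome 19, 6941861 to 6951899, plus strand) was the gene whose groups did not overlap. BAD is held inactive by phosphorylation when growth factors signal, and otherwise binds BCL2 and BCL-XL. It stood at 23.8, 23.8 and 23.2 FPKM in the wild-type libraries, and 17.2, 18.7 and 19.7 FPKM in the KO libraries. Every KO library was below every wild-type library. The counting intervals of the groups did not meet, with a lowest bound of 21.8 FPKM in wild type and a highest of 20.9 FPKM in KO (exact Poisson, 95%). These intervals take each read as a separate molecule. Amplified cDNA repeats molecules, so they may be too narrow to show that the gap exceeds sampling error. The KO mean was 0.787 of the wild-type mean (18.5 ± 1.24 against 23.6 ± 0.358 FPKM, SD, n = 3).

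The log2 change of Bad was -0.33 ± 0.17 (SE), with a limma unadjusted p of 0.0794, an adjusted p of 0.592 and an interval from 0.610-fold to 1.03-fold. The exact p of 0.1 is the smallest that the design allows. Replicates of Bad agreed more closely than those of nearly all genes: its residual SD of 0.067 on the log2 scale was at percentile 1.53 among tested genes. Limma moves such a small SD towards that of genes of like level, here to 0.21, and the adjusted p rests on the larger value. The change was negative under all 16 other settings, from -0.37 to -0.28. Bad shares 524 exon bases with Gpr137 on the opposite strand, and whether reads were counted by strand is not given in the sources used here. Gpr137, named here after its values were seen, had the opposite sign, at 4.08, 3.61 and 6.07 FPKM in the wild-type libraries, and 6.73, 8.79 and 9.18 FPKM in the KO libraries (limma unadjusted p = 0.0287, adjusted p = 0.481). The part of the shared bases in either value was not tested.

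Bid (chromosome 6, 120891930 to 120916853, minus strand) is cut by caspase-8 and so links death receptors to mitochondria. Its level was 12.9, 29.1 and 24.7 FPKM in the wild-type libraries, and 30.4, 12.8 and 34.7 FPKM in the KO libraries. One library in each group, wild-type library 1 and KO library 2, lay at 12.8 to 12.9 FPKM, and the other 4 at 24.7 FPKM or more. These low values rest on 824 and 863 reads, with counting intervals that end at 13.8 FPKM, against a lowest bound of 23.5 FPKM in the other 4 (exact Poisson, 95%). The residual SD of Bid was at percentile 86.1 among tested genes. Its log2 change was 0.18 ± 0.40 (limma adjusted p = 0.935, exact p = 0.6; 0.603-fold to 2.12-fold), and it was -0.16 without wild-type library 1 and -0.08 without KO library 3. Bid shares 628 exon bases with its neighbour Bcl2l13 on the other strand, a BCL2-related gene at 6.07 ± 1.25 and 4.47 ± 1.27 FPKM (SD, n = 3).

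Bcl2l11 (chromosome 2, 128126038 to 128162547, plus strand) encodes BIM, which binds every guardian and is induced when cytokines are withdrawn. It had the lowest mean of the 7 genes, at 3.18, 1.91 and 0.652 FPKM in the wild-type libraries, and 2.10, 1.63 and 3.04 FPKM in the KO libraries. The wild-type libraries spanned 4.88-fold and enclosed all KO values. Reads numbered 99 in the lowest library and 509 in the highest. The log2 change of 0.24 ± 0.42 (limma adjusted p = 0.906, exact p = 0.7; 0.611-fold to 2.28-fold) was -0.12 without wild-type library 3.

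**Figure D2:**
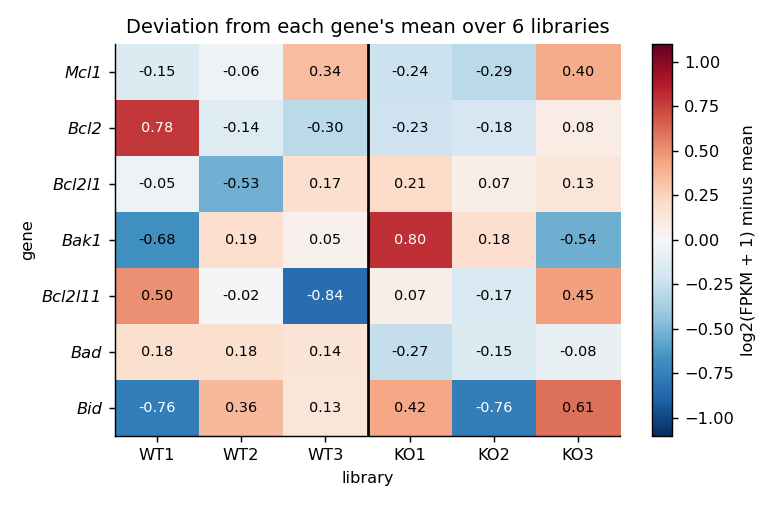
Deviation of each library (columns) from the gene's own mean of log2(FPKM + 1) over the 6 libraries (rows: the 7 genes), in red where higher and blue where lower, with the wild-type libraries left of the line and KO right of it. Bad is red in the 3 wild-type columns (0.14 to 0.18) and blue in the 3 KO columns (-0.27 to -0.08), while every other gene takes both signs within wild type. Large deviations include 0.78 for Bcl2 in wild-type library 1 and -0.84 for Bcl2l11 in wild-type library 3. Bid stands at -0.76 in both wild-type library 1 and KO library 2.

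FPKM is a level per length, so the 7 genes can be ranked by it within a library. The length is that of all annotated exons, from 2407 bases for Bak1 to 9157 bases for Bcl2, and not of the transcripts present. Ranks, shares and ratios between genes are therefore those of FPKM, and may differ from those of transcript numbers. By mean over the 6 libraries the order was Bcl2l1 (37.0 FPKM), Bid (24.1), Mcl1 (23.1), Bad (21.1), Bcl2 (12.7), Bak1 (2.84) and Bcl2l11 (2.09). Bcl2l1 exceeded Bid in 5 of 6 libraries, the exception being wild-type library 2. Bid, Mcl1 and Bad could not be ordered: Bid was above Mcl1 in 3 of 6 libraries, and Mcl1 above Bad in 3 of 6. Bad was above Bcl2 in 6 of 6 libraries. The ranges of Bcl2 and Bak1 were separate, with at least 9.74 FPKM against at most 5.32 FPKM. Bak1 and Bcl2l11 changed places, Bak1 being higher in 4 of 6.

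The summed level of the 3 guardians was 71.6 ± 12.1 FPKM in wild type and 74.1 ± 8.24 FPKM in KO (SD, n = 3), and that of the 3 BH3-only genes 47.7 ± 7.52 and 46.8 ± 12.4 FPKM. Guardians made up 49.9% to 65.2% of the summed level of the 7 genes in wild type and 56.5% to 65.0% in KO, so the KO range lay inside that of wild type. Of the 21 ratios between any 2 of the 7 genes, 1 (4.76%) separated the groups, against 14.4% of all pairs of tested genes. This was the ratio of Bcl2l1 to Bad, a guardian over a BH3-only gene that it binds, at 1.48, 1.0499 and 1.78 in wild type and 2.45, 2.05 and 2.03 in KO. It contains the Bad values already described. The ratio of Mcl1 to Bcl2l11 was 6.39 to 44.3 in wild type and 9.09 to 11.3 in KO.

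Profiles of the 7 genes were also compared in pairs across the 6 libraries, and whether any pair varied together was not tested. Pearson's r on log2(FPKM + 1), given as a description of 6 points that include both groups, ran from -0.76 for Bcl2 with Bak1 to 0.71 for Bcl2 with Bcl2l11. Bad and Bcl2l1 stood at -0.59 and Mcl1 and Bid at 0.56. Among named genes averaging 5 FPKM or more, of which 6329 or 6330 were ranked, the profile most like that of Bcl2l1 was Ppp1ca, a catalytic subunit of protein phosphatase 1 (r = 0.999), then Asns, asparagine synthetase (0.991). Mcl1 was closest to Mrps18a (0.980) and H1f0 (0.977), and Bcl2 to Ywhaz (0.974) and Fos (0.971), which share its high value in wild-type library 1. For Bak1 these were Prpf38b (0.994) and Kptn (0.984), for Bcl2l11 Zfp64 (0.990) and Ssrp1 (0.978), and for Bid Rbl1 (0.994) and Gch1 (0.991). Bad was closest to Dtl (0.988) and to Lyl1, a transcription factor gene of stem cells (0.987). Lyl1 stood at 222, 203 and 197 FPKM in the wild-type libraries, and 120, 133 and 157 FPKM in the KO libraries, lower in every KO library. It was picked for its likeness to Bad, so sharing this order of the groups is no separate finding. With 6 libraries and this many genes, each of the 7 profiles had neighbours with r of at least 0.971.

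The wider family was measured in part, and no gene of it passed the test. The effector gene Bax stood at 43.4, 38.8 and 38.9 FPKM in the wild-type libraries, and 29.7, 40.4 and 42.5 FPKM in the KO libraries, with groups that overlapped (limma adjusted p = 0.885). Its level was 5.58 to 34.3 times that of Bak1 across the libraries. The third effector, Bok, known for not being held back by guardians, measured 7.25, 4.63 and 2.93 FPKM in the wild-type libraries, and 6.32, 13.4 and 9.996 FPKM in the KO libraries. Its log2 change was 0.89 ± 0.37 (limma unadjusted p = 0.0385, adjusted p = 0.509), and the groups overlapped.

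The guardian gene Bcl2l2 was just above the expression filter at 1.44 ± 1.55 and 1.396 ± 1.102 FPKM (SD, n = 3). Bbc3, which encodes the p53-induced BH3-only protein PUMA, measured 4.59, 9.75 and 9.98 FPKM in the wild-type libraries, and 8.77, 2.71 and 3.82 FPKM in the KO libraries (limma adjusted p = 0.692). The 4 other BH3-only genes and the 5 other guardian genes on the lists were not analysed here. Among BCL2-related genes, Bcl2l12 was higher by value in every KO library, at 14.6, 11.1 and 15.5 FPKM against 23.4, 23.9 and 16.7 FPKM, a log2 change of 0.60 ± 0.22 (limma unadjusted p = 0.026, adjusted p = 0.473). Bnip3 and Bnip3l, mitophagy receptors of the outer mitochondrial membrane, stood at 7.38 ± 1.65 and 9.59 ± 0.732 FPKM and at 47.4 ± 3.79 and 43.4 ± 8.26 FPKM (wild type and KO). Bnip3 was also higher by value in every KO library, at 8.43, 8.23 and 5.49 FPKM against 9.50, 10.4 and 8.90 FPKM (limma unadjusted p = 0.193, adjusted p = 0.713).

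**Figure D3:**
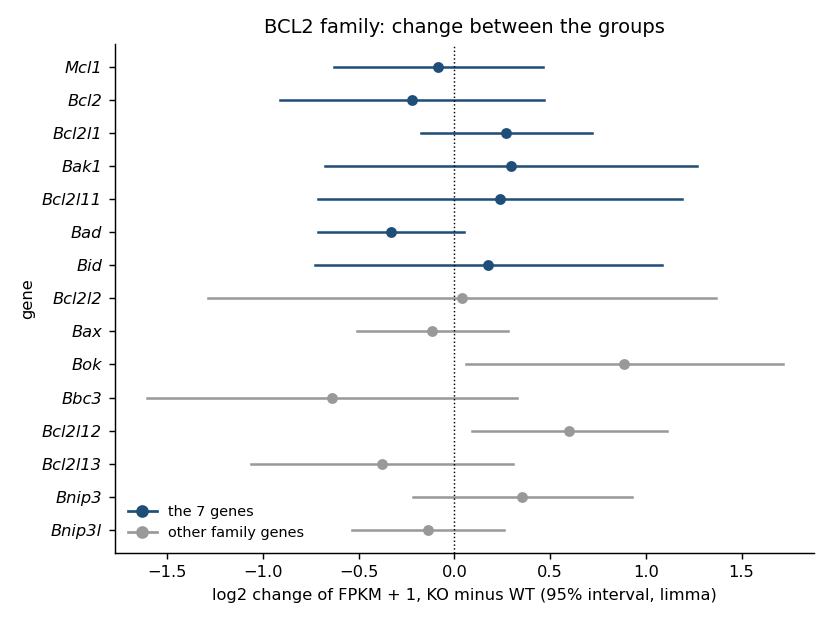
Log2 change of FPKM + 1, KO minus WT (horizontal axis), with its 95% interval from limma, for the 7 genes (blue) and the other family genes in the table (grey). The intervals of all 7 genes cross 0, and that of Bad ends nearest to it, at 0.05, while the unadjusted intervals of Bok and Bcl2l12 lie above 0.

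Lists of the steps around the family were drawn up: the apoptosome and caspases, inhibitors of apoptosis, the death receptor pathway, partners and modifiers of the 7 proteins, and survival receptors with their signalling. Together with the wider family they held 59 tested genes, of which 39 were higher in KO by value and 20 lower, with a median log2 change of 0.11 against 0.00 over all tested genes. None of the 59 passed the adjusted threshold in limma. At an unadjusted p under 0.05 there were 3 higher and 4 lower (11.9%, against 9.2% of all tested genes, 4.87% higher and 4.33% lower). Separate groups were found for 4 higher and 5 lower genes (15.3%, against 15.2%, 8.24% higher and 6.99% lower).

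No gene of the steps after mitochondrial opening passed. In the list of the apoptosome and caspases, 0 of 12 genes passed and 0 had an unadjusted p under 0.05, with a median log2 change of 0.09 that turned to -0.03 without wild-type library 3 and to -0.0012 without KO library 2. Cycs, which encodes cytochrome c, stood at 25.5 ± 3.03 FPKM in wild type and 30.3 ± 3.21 FPKM in KO (SD, n = 3; limma adjusted p = 0.717). Dffb, the caspase-activated nuclease, measured 9.08 ± 5.98 and 13.1 ± 4.79 FPKM (SD, n = 3), and the mitochondrial protease gene Htra2 29.5 ± 6.64 and 29.4 ± 6.65 FPKM. Of 5 inhibitors of apoptosis 0 passed. Birc5, survivin, which also acts in mitosis, was the most abundant at 38.9 ± 3.28 and 43.6 ± 7.73 FPKM, and Birc2, Birc3 and Birc6 had means between 6.81 and 12.3 FPKM in both groups.

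In the death receptor pathway, 0 of 8 genes passed. Fas, a death receptor gene and target of p53, was lower by value in every KO library, at 3.81, 2.28 and 2.13 FPKM against 0.547, 0.716 and 1.61 FPKM, a log2 change of -0.95 ± 0.37 (limma unadjusted p = 0.032, adjusted p = 0.496). Casp8, the protease that cuts BID, stood at 42.7 ± 8.602 and 53.2 ± 3.19 FPKM (SD, n = 3; limma adjusted p = 0.6), and the TNF receptor gene Tnfrsf1a at 32.1 ± 3.49 and 44.6 ± 12.7 FPKM. Trp53 measured 48.5 ± 2.90 and 54.4 ± 6.31 FPKM (limma adjusted p = 0.786).

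Of the 59 genes, those with an unadjusted p under 0.05 came to 7 in all, and 4 of them were on the lists of partners and of survival receptors. Kit, the receptor of stem cell factor, was lower by value in every KO library, at 32.6, 37.0 and 40.5 FPKM against 19.9, 27.7 and 22.1 FPKM (log2 change -0.64 ± 0.18, limma adjusted p = 0.297). Kit is also on the list of stem cell markers given above. Of these, 6 of 11 were lower at an unadjusted p under 0.05, 3 were higher by sign and 0 passed the adjusted threshold.

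Foxo3, which encodes a transcription factor known to induce Bcl2l11 when cytokine signalling is low and is named here after its values were seen, stood at 32.8, 30.5 and 26.96 FPKM in the wild-type libraries, and 17.4, 18.1 and 22.7 FPKM in the KO libraries (log2 change -0.61 ± 0.18, limma unadjusted p = 0.0086, adjusted p = 0.327). The groups of Bcl2l11 overlapped, as given above, with a wide interval of 0.611-fold to 2.28-fold. A link between the levels of Foxo3 and Bcl2l11 was not tested. Gsk3b, whose kinase marks MCL1 for degradation, had 57.3, 55.7 and 59.5 FPKM in the wild-type libraries, and 44.1, 41.3 and 35.7 FPKM in the KO libraries (log2 change -0.50 ± 0.14, limma unadjusted p = 0.0057, adjusted p = 0.285). Pim2, a cytokine-induced kinase that phosphorylates BAD, was higher by value in every KO library, at 17.2, 30.8 and 33.2 FPKM against 41.6, 49.9 and 45.1 FPKM (log2 change 0.78 ± 0.24, limma unadjusted p = 0.0109, adjusted p = 0.351). The 14-3-3 genes Ywhae and Ywhaz, whose proteins hold phosphorylated BAD in the cytosol, were the most abundant of the list at 278 ± 30.5 and 314 ± 28.0 FPKM and at 167 ± 30.6 and 156 ± 9.95 FPKM (SD, n = 3), without passing.

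**Figure D4:**
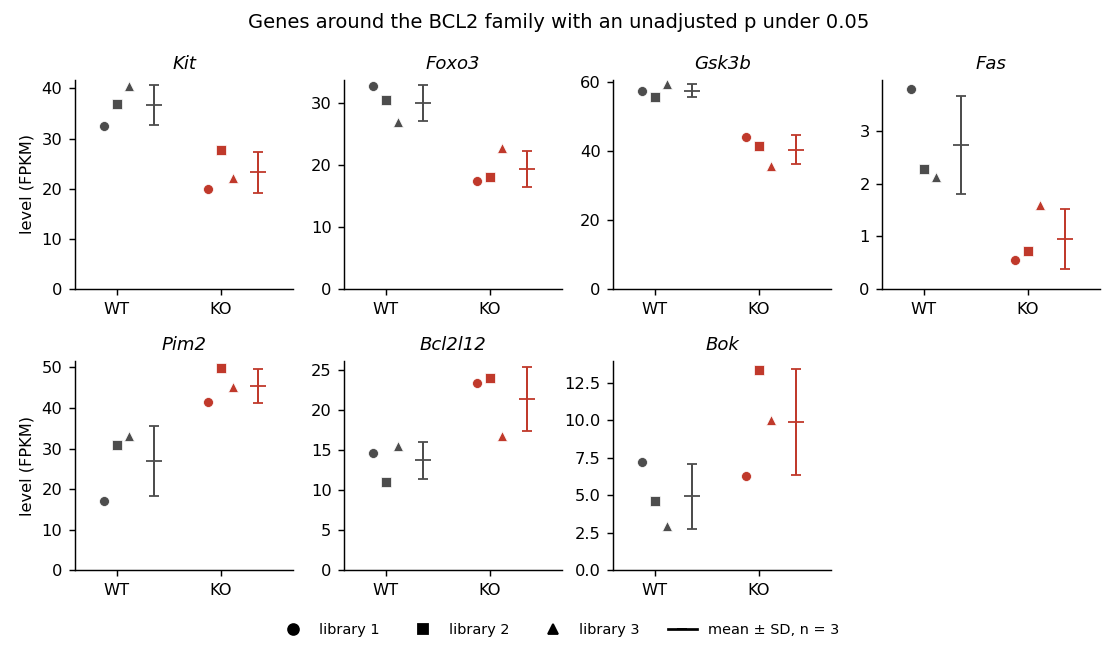
Level in FPKM (vertical axes, linear from 0) of the genes of the wider family and surrounding lists with an unadjusted limma p under 0.05 (7 of 59), by library in wild type (grey) and KO (red), with the mean ± SD (n = 3). Kit, Foxo3, Gsk3b and Fas are lower and Pim2 and Bcl2l12 higher in every KO library, and the Bok groups overlap; none has an adjusted p under 0.05.

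**Figure D5:**
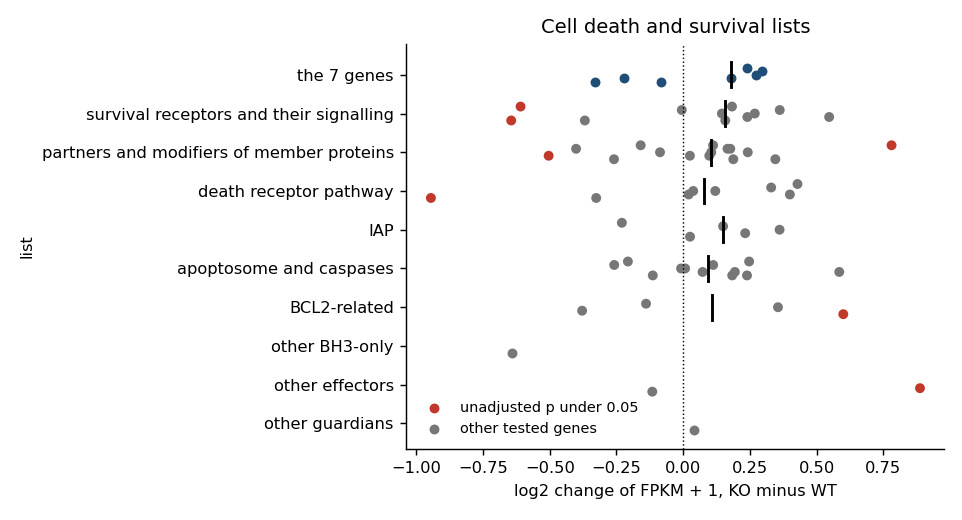
Log2 change of FPKM + 1, KO minus WT (horizontal axis), of each tested gene in the lists around the family (rows), with genes of unadjusted p under 0.05 in red, the 7 genes in blue and the median of each list with at least 3 genes as a bar. Medians lie between 0.08 and 0.18, against 0.00 for all tested genes, and those of the 7 genes and of 4 lists turn negative under at least 1 other setting. The genes farthest from 0 are Fas (-0.95) and Bok (0.89).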

How the data were processed

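Per the submitters' processing notes, fastp, Bowtie2 and featureCounts were used with the build mm10, and no versions are given. The authors deposited FPKM by gene symbol, 1 column per library, mapped through the sample titles. Symbols were matched to GENCODE M21 (GRCm38, the assembly of mm10) for 14693 genes (98.0%). FPKM times exon length gave whole reads within 0.05 for 98.0% of values below 100 reads. Counting intervals are exact Poisson at 95%. They cover counting error only, since amplified cDNA repeats molecules.

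Genes averaging 1 FPKM or more were tested with limma 3.58.1 (R 4.3.3) on log2(FPKM + 1), with a mean-variance trend and Benjamini-Hochberg adjustment over the 11837 tested genes at 0.05. Changes of genes with low values are understated on this scale. Exact two-sided permutation tests (SciPy 1.17.1) compared single genes, unadjusted. Fold ratios are of mean FPKM unless stated. The procedure was tested on simulated data. The text names the 7 genes, Zcchc8, the other family genes, the 2 genes of smallest p and the 2 of highest level in each list, and the 2 genes most like each of the 7. Certain genes of the lists are not reported here and are in none of the list counts. The genes and lists were chosen with earlier results of these data known. Alternatives changed the pseudocount, filter, scaling, variance trend, block, count model and libraries used. Figures used matplotlib 3.10.9.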

Additional observations from a re-analysis of the deposited data

How the results depend on the processing

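In each of the 16 other settings 0 of the 7 genes passed; Bak1 and Bcl2l11 were not tested with a filter of at least 5 FPKM, where their means fall short. Over all genes the 27 calls went to 8 without the variance trend and 8 with limma-voom on recovered reads, and to between 11 and 19 when a library was left out. With the replicate number as a block there were 11 calls. Deviations of same-numbered libraries correlated at 0.024, 0.007 and 0.004, and those of libraries with different numbers at -0.016 to 0.009. With 3 libraries per group, these values cannot decide whether the numbers pair the libraries. Bad and Bcl2l1 kept their sign in all 16 settings, but the change of Bcl2l1 ran from 0.075 to 0.43 when a library was left out. When each library was left out in turn, the log2 changes of the remaining members changed sign, with ranges of -0.31 to 0.063 for Mcl1, -0.43 to 0.11 for Bcl2, -0.031 to 0.64 for Bak1, -0.12 to 0.55 for Bcl2l11 and -0.16 to 0.60 for Bid. Of other genes this held for Zcchc8 (-0.11 to 0.37), Bcl2l2 (-0.43 to 0.52), Bax (-0.21 to 0.04), Bnip3l (-0.23 to 0.026), Htra2 (-0.15 to 0.19), Birc2 (-0.10 to 0.49) and Ywhaz (-0.19 to 0.056). With voom Bcl2l2 stood at -0.062 and Htra2 at 0.0066. The cause was not tested. The lowest libraries of Bak1 and Bcl2l11 held 55 and 99 reads, and replicates of both genes differed by more than their counting intervals. List medians were unstable. With a filter of at least 5 FPKM that of the survival receptors went from 0.16 to -0.11 and that of the death receptor pathway from 0.08 to 0.33. The median of the inhibitors of apoptosis was -0.02 without KO library 1 and 0.26 without KO library 3, that of the apoptosome and caspases -0.03 without wild-type library 3, that of the death receptor pathway -0.07 without wild-type library 1, and that of the partners 0.01 without KO library 3.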
